A study of Mus musculus with 2 samples.

Results

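The regions described here are the long peaks of a Smad4 ChIP-seq list from mouse forelimb. A broad peak is an autosomal peak (chromosomes 1 to 19) longer than 2000 bp, and 379 of the 84788 autosomal peaks met this rule, of 90984 peaks in the whole list (autosomes, X and Y). They made up 0.447% of the autosomal peaks, 2.31% of the bases and 4.54% of the tags in them, where a tag is a sequenced read placed in a peak. They were set against the 3225 autosomal peaks of 1001 to 2000 bp, called mid-length peaks below. The members were chosen by their length, which comes from the same peak call as tags, fold and summit, so these values are given as a description and no test was made.

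The study used C57BL/6 embryos. Forelimbs of embryonic days 12.5 and 13.5 were crosslinked and sonicated. There was 1 library made with an antibody to Smad4 and 1 library of input DNA, which was taken without antibody, and the labels give both ages for each. No genetic change or treatment is named for either library, a forelimb holds many cell types, and the labels do not say how many embryos were used. The list carries positions in build mm9 and no gene names, so no gene is assigned to a peak. No value here has a replicate check, and all intervals below cover counting error at the 95% level.

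Smad4 enters the nucleus together with receptor-activated Smads after BMP or TGF-β stimulation and binds short DNA motifs. A sequence-specific factor of this kind usually gives compact ChIP-seq peaks around its sites, whereas long stretches of signal are better known from histone marks that cover whole genes or domains. Long stretches are also known from tandem repeats and duplicated sequence, where reads from several copies can be placed on one another and where both the antibody and the input library may hold an excess of reads.

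The broad peaks were unevenly spread over the autosomes. Chromosome 4 had 84 of them (22.2%, exact binomial interval 18.1 to 26.7%) and chromosome 14 had 73 (19.3%, 15.4 to 23.6%). These chromosomes together held 41.4% of the broad peaks (36.4 to 46.6%), against 21.9% of mid-length peaks (20.5 to 23.4%) and 13.1% of all autosomal peaks. Relative to its share of mid-length peaks, chromosome 4 held 2.31 times as many broad peaks (1.88 to 2.78), chromosome 14 held 1.57 times (1.26 to 1.92) and chromosome 13, with 34, held 1.53 times (1.07 to 2.10). Chromosome 8, with 24, had a ratio of 1.52 with an interval that reaches below 1 (0.987 to 2.23). At the other end chromosome 11 had 96 mid-length peaks and 0 broad ones, which allows a share of up to 0.969% by the exact interval. Chromosome 3 had 2 broad peaks for 181 mid-length ones, a ratio of 0.094 (0.0114 to 0.337). Chromosomes 2, 12, 16, 17 and 18 had 5 to 7 each, and their ratios, 0.313 to 0.473, had intervals that stayed below 1. For chromosomes 17 and 18 the upper ends, 0.964 and 0.984, were close to 1. The intervals treat peaks as independent, which neighbouring broad peaks are not. Those of the ratios also take the mid-length share as exact, which makes them too narrow.

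**Figure D1:**
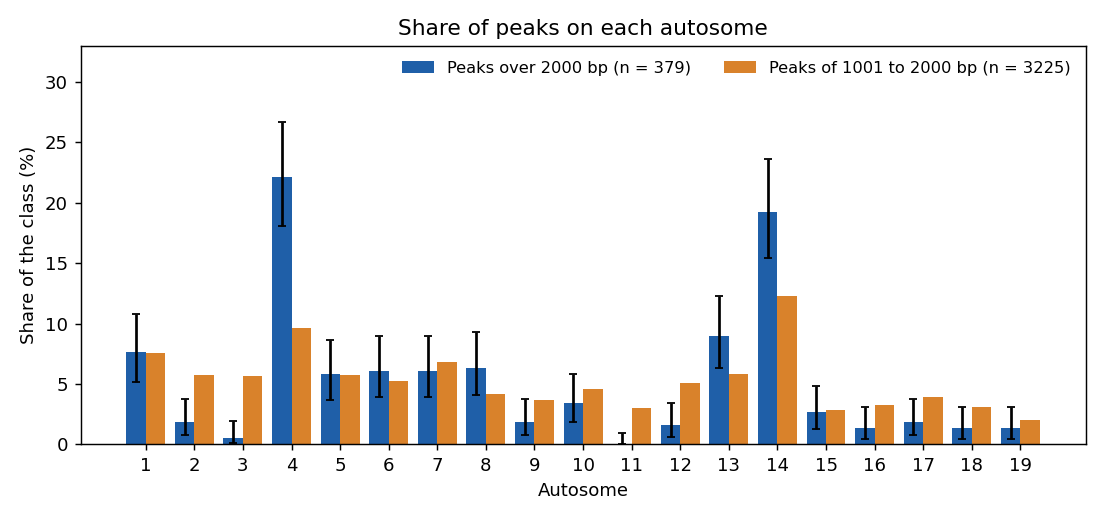
Share of each length class on each autosome, in percent. Blue bars are the 379 peaks over 2000 bp with exact binomial 95% intervals, orange bars the 3225 peaks of 1001 to 2000 bp; the blue bar exceeds the orange one most on chromosome 4 (22.2% against 9.61%) and is at 0 on chromosome 11.

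Within chromosomes the broad peaks gathered in a few places. Of 2416 autosomal windows of 1 Mb with any peak, 162 held a broad peak, and in 123 of these there was a single one. At the other extreme, 7 windows with at least 10 broad peaks held 119 of the 379. The fullest were neighbours on chromosome 4, with 31 broad peaks from 146000001 to 147000000 and 30 from 145000001 to 146000000. The windows with the most broad peaks were not those with the most peaks. Those windows on chromosome 4 held 61 and 59 peaks of any length, while the window on chromosome 14 from 7000001 to 8000000 held 238 peaks and 9 broad ones, and that on chromosome 4 from 60000001 to 61000000 held 246 peaks and 8 broad ones. The other windows with at least 10 broad peaks, on chromosomes 13 and 14, held 113 to 188 peaks of any length. Windows of at least 100 peaks held 26.6% of the broad peaks (22.3 to 31.4%), 16.0% of mid-length peaks (14.8 to 17.3%) and 3.44% of all autosomal peaks.

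Broad peaks lay near one another. From the end of one to the start of the next on the chromosome the median gap was 73299 bp, with quartiles of 7156 and 5236089 bp. This median depends on which peaks are kept, at 119722 bp with an FDR of at most 1%, 185430 bp without chromosome 4, 235843 bp with a fold of at least 1 and 44184.5 bp with a length over 2500 bp. The wide quartiles reflect a mixture of close neighbours and isolated peaks. The next broad peak lay within 10 kb for 101 of the 361 that have a next one (28.0%, 23.4 to 32.9%) and within 100 kb for 197 (54.6%, 49.3 to 59.8%). Among mid-length peaks, although they are far more numerous, the next of their class lay within 100 kb for 35.0% (33.3 to 36.7%), and the median gap was 301780 bp. Divided by the mean spacing of the class on the same chromosome, the median gap was 0.0229 for broad and 0.385 for mid-length peaks.

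The same holds when both classes are measured to the same targets. The nearest other broad peak was within 100 kb for 238 broad peaks (62.8%, 57.7 to 67.7%) and for 639 mid-length peaks (19.8%, 18.5 to 21.2%). The nearest other mid-length peak was within 100 kb for 300 broad peaks (79.2%, 74.7 to 83.1%) and for 1532 mid-length peaks (47.5%, 45.8 to 49.2%). A peak of any length lay within 1 kb of 55.7% of broad peaks (50.5 to 60.7%) and of 39.6% of mid-length peaks (37.9 to 41.3%). At the same time 113 broad peaks (29.8%, 25.3 to 34.7%) had no other broad peak within 1 Mb, the farthest being 119966812 bp from the next, on chromosome 3. Joining peaks less than 1 kb apart into one region raised the number over 2000 bp from 379 to 2642, of which 2307 held no broad peak. The next of the class then lay within 100 kb for 28.4% of regions over 2000 bp, against 30.5% of joined regions of 1001 to 2000 bp. Joining removes every gap under 1 kb by construction. Before joining, the next of the class lay within 1 kb for 9.70% of broad and 4.59% of mid-length peaks.

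**Figure D2:**
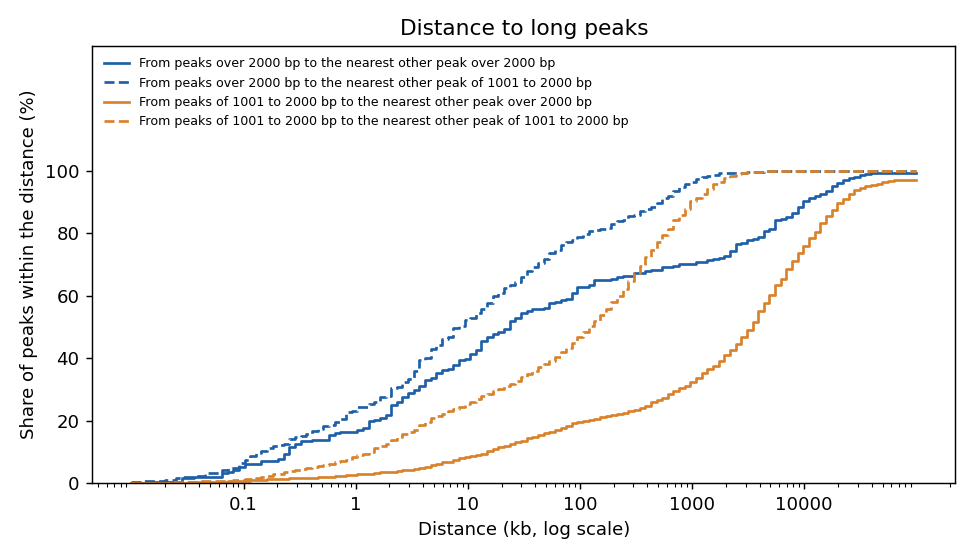
Share of peaks, in percent, with a long peak within the distance on the x axis (kb, log scale). Blue lines start from peaks over 2000 bp and orange lines from peaks of 1001 to 2000 bp, solid lines lead to the nearest other peak over 2000 bp and dashed lines to the nearest other peak of 1001 to 2000 bp; at 100 kb the solid lines stand at 62.8% and 19.8%, and the solid orange line ends below 100% because chromosome 11 has no peak over 2000 bp.

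Broad peaks were joined into a cluster where at least 3 followed each other with gaps of at most 100 kb. There were 29 clusters on 9 autosomes, and they held 214 of the broad peaks (56.5%, 51.3 to 61.5%) in a total of 4.40 Mb. Another 24 formed pairs and 141 stood alone. The interval of the share in clusters treats peaks as independent. Membership depends on neighbouring broad peaks by definition, so this interval is likely too narrow. The cluster spans held 655 peaks of any length, of which 32.7% were broad (29.1 to 36.4%), against 0.447% over all autosomes, a contrast that the choice of spans itself produces. They held 5.95% of the mid-length peaks (5.16 to 6.83%).

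The largest cluster lay at chr4:145834900-146690796, with 39 broad peaks among 73 peaks of any length. Its broad peaks were 2015 to 9983 bp long and held 34.5 to 65.7 tags per kb, with a median deposited fold of 0.95. Another lay 292 kb before it, at chr4:145057956-145542481, with 22 broad peaks among 32, 34.0 to 65.0 tags per kb and a median fold of 0.985. Together these 2 spans held 61 of the 84 broad peaks of chromosome 4. Their values were close to each other in level and in range.

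Other clusters were smaller and differed in how much of the local peak list was broad. On chromosome 1, chr1:84951649-85309450 held 14 broad peaks among 30, with a median of 52.7 tags per kb and a median fold of 0.96, and chr1:87349291-87548175 held 6 among 15, with 57.1 tags per kb and a fold of 1.08. On chromosome 8, 10 of the 11 peaks in chr8:71958479-72112195 were broad, with a median of 68.9 tags per kb and a fold of 0.985. The opposite case was on chromosome 4, where chr4:61118602-61440649 had 8 broad peaks among 89, with 35.5 tags per kb and a fold of 1.19. Chromosome 13 resembled it, with 10 of 56 at chr13:65462686-65764330 (39.3 tags per kb, fold 1.02) and 9 of 56 at chr13:66377444-66780482 (37.2 tags per kb, fold 0.95). Of the clusters named so far, the 3 in which the fewest of the peaks were broad had 35.5 to 39.3 tags per kb at the median, and the 5 others 45.5 to 68.9. Other clusters did not keep to this split. With 3 of 5 peaks broad, chr4:60151062-60175073 had 39.3, and with 4 of 7, chr14:8162525-8193206 had 37.8. With 5 of 27 peaks broad, chr14:42185181-42304618 had 41.6, and with 7 of 26, chr5:26328253-26448889 had 44.3.

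Chromosome 14 had the most clusters, 10 with 44 broad peaks, and those of at least 5 members held 5 to 7. They were chr14:6189594-6282867 (5 of 23 peaks, median fold 1.07), chr14:42185181-42304618 (5 of 27, 1.20), chr14:43346558-43378622 (5 of 9, 1.41) and chr14:44155737-44234322 (7 of 22, 1.28). Over all 44 clustered broad peaks of this chromosome the median was 40.4 tags per kb and the median fold 1.20 (quartiles 1.08 and 1.38), against 44.4 tags per kb and a fold of 0.995 (quartiles 0.89 and 1.13) for the 76 on chromosome 4. The quartile ranges of fold overlap little between the chromosomes.

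The remaining clusters of at least 5 members spanned 29.7 to 121 kb each. In chr6:47605516-47722323, 8 of 11 peaks were broad and held a median of 80.0 tags per kb. At its start 5 broad peaks and 2 shorter ones followed each other with gaps under 1 kb, forming a stretch of 31.7 kb of which peaks cover 97.9%, the longest such stretch around a broad peak. The first 4 broad peaks there were 4133, 8734, 4911 and 6056 bp long, with 99.0, 97.9, 62.9 and 89.3 tags per kb and gaps of 82, 96 and 237 bp. The folds of these peaks were 0.99, 1.12, 1.56 and 1.05. Among these 4, the highest fold was in the peak with the fewest tags per kb and the lowest in that with the most. The last broad peak of the stretch, chr6:47631440-47636631, did not keep to this order. It had fewer tags per kb than these 4, 60.5, and a fold of 1.41. The clusters of exactly 5 broad peaks beside those on chromosome 14 were chr6:114476900-114515857 (median fold 1.51, the single cluster above the mid-length median of 1.45), chr7:66927731-67047712 (1.29), chr7:71611683-71641356 (1.29) and chr10:103605476-103635219 (1.27), and chr5:26328253-26448889 held 7 (1.00).

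**Figure D3:**
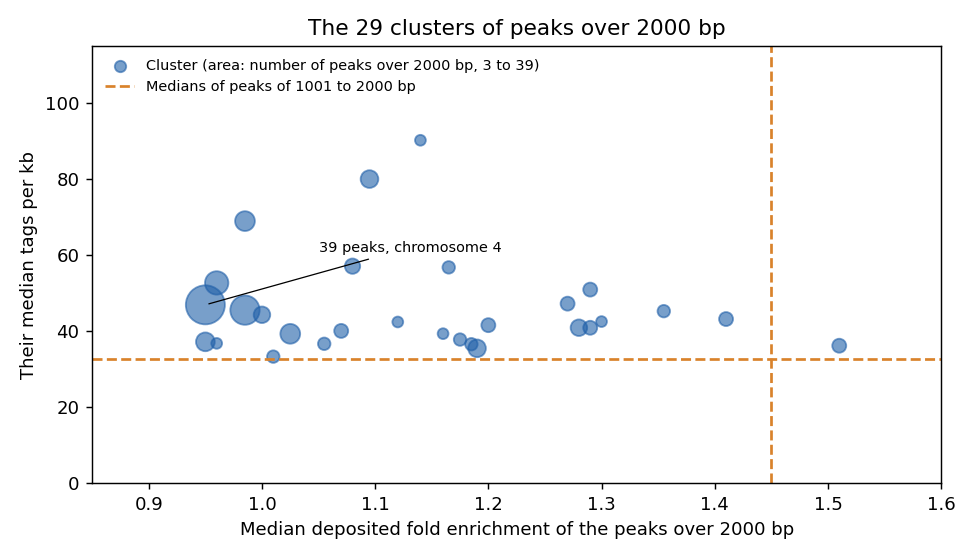
Each point is 1 of the 29 clusters, with the median deposited fold of its peaks over 2000 bp on the x axis and their median tags per kb on the y axis; the area gives the number of those peaks (3 to 39). Dashed lines are the medians of peaks of 1001 to 2000 bp (1.45 and 32.6); all 29 clusters lie above the horizontal line and 28 lie left of the vertical one.

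Broad peaks held more tags per kb than mid-length peaks in this library. The median was 41.5 tags per kb (quartiles 36.5 and 49.4) against 32.6 (30.2 and 36.0), a ratio of 1.27. Of the broad peaks, 352 (92.9%, 89.8 to 95.3%) lay above the mid-length median. The fewest tags were 59 in a broad peak, 30 in a mid-length peak and 15 in any autosomal peak, and how far such a minimum sets the relation between length and tags was not tested. Against the 532 mid-length peaks over 1500 bp, whose median was 34.8, the share above was 84.4%. When peaks less than 1 kb apart were joined, gaps included, the order turned. The median was then 21.6 tags per kb over 2000 bp and 26.8 at 1001 to 2000 bp. Of the 2642 joined regions over 2000 bp, 2307 held no broad peak.

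Among the broad peaks themselves, tags per kb were mostly higher in longer length bands, with nearly equal medians from 4001 to 7000 bp. The median was 37.5 at 2001 to 2500 bp (163 peaks), 39.9 at 2501 to 3000 bp (66 peaks), 43.9 at 3001 to 4000 bp (72 peaks), 53.8 at 4001 to 5000 bp (28 peaks), 53.4 at 5001 to 7000 bp (35 peaks) and 62.7 above 7000 bp (15 peaks). Spearman's rho of length and tags per kb was 0.52 over the 379 peaks, which share 1 library and which enter both quantities through length. The share in clusters was also higher in longer bands, from 39.3% at 2001 to 2500 bp to 63.6% at 2501 to 3000 bp and 86.7% above 7000 bp. Their median deposited fold was 1.30 at 2001 to 2500 bp and between 1.00 and 1.14 in every longer band.

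**Figure D4:**
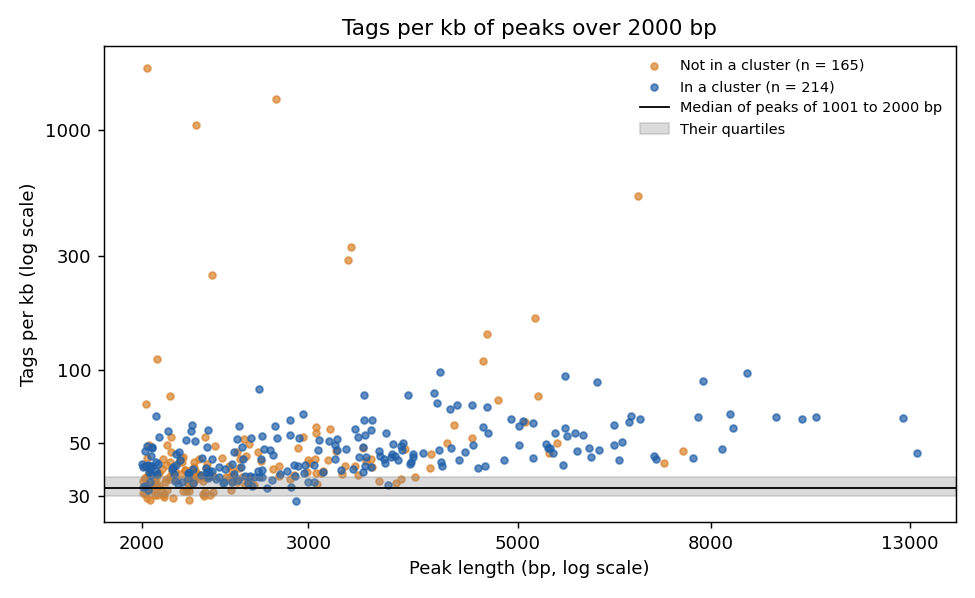
Tags per kb (log scale) against length in bp (log scale) for the 379 peaks over 2000 bp. Blue points are the 214 in clusters, orange points the 165 others, the line and grey band the median (32.6) and quartiles of peaks of 1001 to 2000 bp; the 7 points above 200 tags per kb are all orange, and the 10 longest peaks are all blue.

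The 10 longest peaks all lay in clusters. The longest, chr14:43671126-43684337, was 13212 bp long and held 601 tags, or 45.5 per kb (exact Poisson interval 41.9 to 49.3), with a fold of 1.27. Next came chr1:84996987-85009768 with 12782 bp and 808 tags (63.2 per kb, 58.9 to 67.7) and chr1:87349291-87359615 with 10325 bp and 660 tags (63.9 per kb, 59.1 to 69.0). The tags per kb of the latter pair have overlapping intervals, and both lie above that of the longest peak. Their p scores, which are the negative log10 of the deposited p-value multiplied by 10, were 56.38 and 51.87, the latter the lowest of all broad peaks. The other 7 were chr4:146116875-146126857 (62.7 tags per kb), chr4:146389190-146398569 (64.1), chr4:145917926-145926300 (65.7), chr6:47609731-47618464 (97.9), chr1:87457325-87465774 (57.9), chr10:103614035-103622250 (47.2) and chr10:57683855-57691693 (90.2). Their folds ran from 0.95 to 1.69.

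The peaks with the most tags per kb were different ones, with no overlap with the 10 longest, and none of them lay in a cluster. On chromosome 2, chr2:98505845-98507867 held 3661 tags in 2023 bp, or 1810 per kb (1752 to 1869), and its neighbour chr2:98501998-98504773 held 1344 per kb (1301 to 1387). Then came chr15:74915418-74917700 with 1044 per kb (1002 to 1087) and chr17:39979486-39986190 with 530.4 per kb (513 to 548). These 4 peaks held 13330 tags, 17.7% of all tags in broad peaks, and their folds were all under 1, at 0.79, 0.99, 0.78 and 0.86. The next were chr17:13743087-13746415 with 327 per kb and a fold of 1.41, chr13:74665572-74668877 with 289 per kb and a fold of 2.30, and chr4:118219328-118221702 with 249 per kb and a fold of 1.75. The last 3 of the 10 held 111 to 165 per kb: chr8:19904885-19910091 and chr5:14993955-14998591 had the lowest folds of all broad peaks, 0.58 and 0.65, and chr6:29697261-29699337 had 1.51. Above 100 tags per kb there were 11 broad and 17 mid-length peaks.

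At the low end, the 10 broad peaks with the fewest tags per kb held 28.8 to 30.5, near the lower quartile of mid-length peaks (30.2). The lowest was chr14:6189594-6192508 with 84 tags in 2915 bp (28.8 per kb, 23.0 to 35.7), the single one of the 10 in a cluster. Next were chr8:6983114-6985153 with 59 tags (28.9 per kb, 22.0 to 37.3) and chr2:26856898-26859139 with 65 tags (29.0 per kb, 22.4 to 37.0). Their counting intervals overlap, so the order among them is not resolved.

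The deposited fold enrichment was lower in broad than in mid-length peaks. Its median was 1.15 (quartiles 0.97 and 1.47) against 1.45 (1.19 and 1.78), and 277 broad peaks (73.1%, 68.3 to 77.5%) lay under the mid-length median. A fold below 1 was deposited for 107 broad peaks (28.2%, 23.8 to 33.1%), for 9.09% of mid-length peaks (8.12 to 10.1%) and for 4.36% of all autosomal peaks. A fold of at least 2 was deposited for 23 broad peaks (6.07%, 3.89 to 8.97%), for 13.8% of mid-length peaks (12.6 to 15.0%) and for 13.9% of all autosomal peaks. The deposited FDR was at most 1% for 87.9% of broad peaks (84.1 to 91.0%), 93.5% of mid-length peaks and 77.3% of all autosomal peaks. With peaks less than 1 kb apart joined and the fold taken from the piece with the most tags, the medians were 1.505 over 2000 bp and 1.5 at 1001 to 2000 bp, and 48.8% of the longer regions lay under the latter (46.9 to 50.8%), an interval that includes an even split. The difference in fold was thus not seen after joining. Of the 2642 joined regions over 2000 bp, however, 2307 held no broad peak, so this does not describe the broad peaks alone.

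Clustered and other broad peaks differed in these values. The 214 in clusters had a median fold of 1.08 (quartiles 0.932 and 1.22), and 36.0% were below 1 (29.6 to 42.8%). The 165 others had a median of 1.41 (1.09 and 1.76), and 18.2% were below 1 (12.6 to 24.9%). For the 113 with no other broad peak within 1 Mb the median was 1.49, close to the 1.45 of mid-length peaks. Of the 23 broad peaks with a fold of at least 2, 22 lay outside clusters and 21 had no other broad peak within 1 Mb. Tags per kb went the other way, with a median of 44.0 in clusters (38.8 and 53.1) and 38.1 outside (34.8 and 44.3). Clustered broad peaks were also longer, with a median of 3041 bp against 2334 bp outside, and these values were not compared at equal length. The median number of other peaks within 50 kb was 12 in clusters and 5 outside.

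Mid-length peaks in the same places shared the lower fold. The 192 inside the cluster spans had a median fold of 1.13 (0.99 and 1.30), against 1.47 (1.21 and 1.79) for the 3033 elsewhere. Their tags per kb were 36.7 (32.1 and 42.9) against 32.5 (30.1 and 35.7). Peaks of 1000 bp or less inside the spans had a median fold of 1.23, against 1.49 over all autosomal peaks of that length. Inside the spans the fold of broad peaks, 1.08, was thus near that of mid-length peaks, while their tags per kb stayed higher, at 44.0 against 36.7. How length and place each contribute was not tested.

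The 10 highest folds among broad peaks belonged to peaks outside clusters, 2119 to 2994 bp long. The highest was chr17:5863985-5866978, with 113 tags (exact Poisson interval 93.1 to 136) in 2994 bp and a fold of 3.76, 2785840 bp from the nearest other broad peak. Next was chr7:106445617-106447822, with 92 tags and a fold of 3.51, and these were the 2 broad peaks of at least 3-fold. The following 3 were chr12:55782126-55784325 with 2.83, chr19:50736594-50738833 with 2.81 and chr6:88520463-88522727 with 2.61. The rest of the 10 were chr9:19410181-19412299 (2.57), chr3:139685110-139687645 (2.56), chr16:31823139-31825444 (2.56), chr8:83715467-83717800 (2.50) and chr17:61162358-61164485 (2.50). They held 32.0 to 52.7 tags per kb, within the range of ordinary broad peaks, and none was in a cluster or among the 10 with the fewest tags per kb. The 5 lowest folds were, beside the chromosome 8 and chromosome 5 peaks named above, 0.66 at chr4:146563581-146567075, 0.69 at chr12:4219169-4221764 and 0.69 at chr13:66377444-66379680.

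If the deposited p-values are Poisson probabilities, each peak's tags and p score fix a number of tags that was expected in it. On this reading the median expectation was 14.6 tags per kb in 375 broad peaks (quartiles 7.64 and 24.6) and 4.83 in 3224 mid-length peaks (3.18 and 7.57). The 4 broad peaks and 1 mid-length peak at the highest p score, 3100, were left out. Within broad peaks the expectation was 20.2 in clusters and 7.36 outside, and in mid-length peaks it was 10.9 inside the cluster spans and 4.57 elsewhere. Observed over expected tags had medians of 2.69 in broad and 6.87 in mid-length peaks. The list starts at a lowest p score, and on this reading the smallest ratio that reaches a given p score falls as tags rise. Broad peaks, which hold more tags, can thus be listed at lower ratios than mid-length peaks. How far this sets the differences in expectation and ratio between the groups was not tested. The extremes show the spread. In chr17:5863985-5866978, the broad peak of highest fold, 37.7 tags per kb were observed and 0.45 expected, while in chr1:87349291-87359615, 63.9 were observed and 53.7 expected. The latter peak has the lowest p score of all broad peaks. Over the 375 broad peaks the deposited fold and this ratio had a Spearman's rho of 0.83, but they are not the same number, since the first of these peaks has a deposited fold of 3.76.

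Summits, the position of highest tag pile-up that the caller gives for each peak, lay across most of the length of broad peaks. Each step of 10% of the length between 10% and 90%, counted from the peak start, held 9.76 to 14.5% of the summits. Mid-length peaks had maxima at 30 to 40% (17.1%) and 60 to 70% (20.0%) and fewer in the middle. The summit was in the first or last 20% of the length in 108 broad peaks (28.5%, 24.0 to 33.3%) and 562 mid-length peaks (17.4%, 16.1 to 18.8%). In the first or last 10% it was in 13 broad peaks (3.43%, 1.84 to 5.79%) and 2 mid-length peaks (0.062%). The median distance of the summit from the centre was 21.8% of the length in broad and 18.1% in mid-length peaks. It was 21.2% in the mid-length peaks over 1500 bp, near the value of broad peaks, and 15.1% in broad peaks of 5001 to 7000 bp. The share of summits in the first or last 20% was nevertheless 13.5% in the mid-length peaks over 1500 bp (10.7 to 16.7%). It was within 10% of the centre in 23.0% (18.8 to 27.5%) and 19.9% (18.5 to 21.3%), intervals that overlap.

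In bp the nearest end of the peak was at least 169 bp from the summit in broad peaks and 118 bp in mid-length peaks, and the lowest distance among all autosomal peaks was 103 bp. A margin of this kind takes a smaller percentage of a longer peak, and its part in the difference was not tested. The median distance from the summit to the nearest end was 787 bp in broad peaks (quartiles 488 and 1144) and 398 bp in mid-length peaks (302 and 467). It was 548 bp at 2001 to 2500 bp of length, 892 bp at 3001 to 4000 bp and 3059 bp above 7000 bp. Summits fell before the midpoint in 54.1% of broad peaks (48.9 to 59.2%), an interval that includes an even split. The share in the first or last 20% was 28.0% in clusters (22.1 to 34.6%) and 29.1% outside (22.3 to 36.7%), with overlapping intervals. Of the 10 longest peaks 1 had its summit there, chr10:103614035-103622250 at 14.8% of the length.

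**Figure D5:**
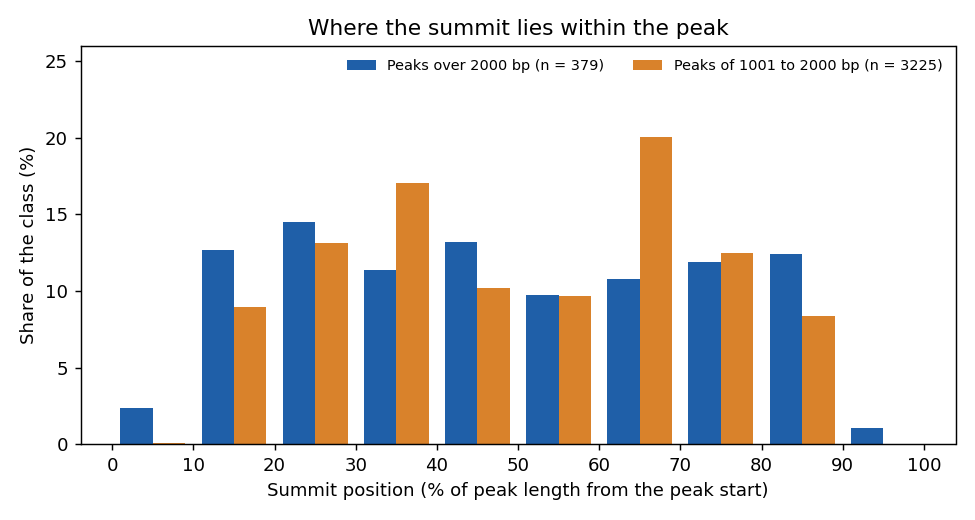
Share of summits, in percent of the class, in each step of 10% of the peak length counted from the peak start. Blue bars are the 379 peaks over 2000 bp, which hold 9.76 to 14.5% in each step between 10% and 90%; orange bars are the 3225 peaks of 1001 to 2000 bp, with maxima of 17.1% and 20.0%.

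Peaks were also continued by others across short gaps. Linking peaks less than 1 kb apart placed the 379 broad peaks in 335 stretches. In 168 the broad peak was by itself, 167 held at least 2 peaks, 74 at least 3 and 35 at least 2 broad ones. After the 31.7 kb stretch on chromosome 6, the longest were 24.9 kb at chr7:71611683-71636630, with 9 peaks covering 83.2%, and 20.3 kb at chr4:146106588-146126857, with 3 broad peaks covering 95.8%. The smallest gap between broad peaks was 15 bp, on chromosome 10 between chr10:57683855-57691693 and its neighbour. Runs of shorter peaks are not members by the rule, and linking gave another 2307 stretches over 2000 bp without a broad peak.

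The limit itself fell in a continuous range of lengths. Just above it were chr14:7609373-7611375 (2003 bp, 40.9 tags per kb, fold 1.15), chr14:44196957-44198962 (2006 bp, 32.9 and 1.73) and chr2:111702704-111704710 (2007 bp, 30.9 and 1.83). Just below were chr14:43031918-43033917 (2000 bp, 30.5 and 1.52), chr3:145749265-145751263 (1999 bp, 27.5 and 1.38) and chr18:13454677-13456674 (1998 bp, 46.5 and 2.60). The values of these groups of 3 overlap.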

How the data were processed

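Smad4 ChIP DNA and input DNA from mouse forelimb were sequenced, 1 library each. BWA, MACS and SICER are listed by the submitters' processing notes with build mm9, without versions or settings. The treatment of multiply placed or duplicate reads is not stated, which can change tags in repeated sequence. The list has a MACS column layout, per the file headers. Tags are whole-number counts per peak made by the authors. The fold is a ratio deposited by the authors, whose background and scale are not stated. The p score is a score deposited by the authors, 10 times the negative log10 of the p-value. The FDR is a percent deposited by the authors. Library depth is unknown, so counting error of tags limits the precision.

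Positions are 1-based. Tags per kb are tags over length, and the summit position is its offset from the peak start over length. Shares have exact binomial (Clopper-Pearson) and tags exact Poisson 95% intervals, which cover counting error only. Those of the shares treat peaks as independent, which neighbouring peaks are not. Expected tags were found from tags and p score with the Poisson distribution. In joined peaks the summit and fold are those of the piece with the most tags. Named peaks are the 10 longest, the 10 with the most and the 10 with the fewest tags per kb, the 10 highest and 5 lowest folds, clusters of at least 5 broad peaks and the 3 peaks on either side of the length limit; peaks within named clusters or stretches and the windows were singled out after their values were seen. The members and lists were chosen with earlier results of these data known. Genes and sequences were not assigned, since no mm9 annotation or sequence was used. Values were computed in scipy 1.17.1, pandas 2.3.3 and numpy 2.4.6 under Python 3.11.15 and drawn with matplotlib 3.10.9. Cluster finding, summit position, gaps, nearest distances, tags per kb and expected tags were checked on simulated peaks with known answers. The joining of peaks, the windows, the cluster spans and the intervals were not checked in this way.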

Additional observations from a re-analysis of the deposited data

Results flagged for a closer look

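The X chromosome lies outside the rule for the broad peaks, and its long peaks were not used above. It had 127 peaks over 2000 bp among 6143 (2.07%, exact binomial 95% interval 1.73 to 2.45%), against 0.447% on the autosomes (0.403 to 0.494%). Their median was 52.2 tags per kb and a fold of 1.18, against 33.4 tags per kb and a fold of 1.36 in the 528 X peaks of 1001 to 2000 bp. Y had 0 such peaks among 53.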

How the results depend on the processing

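Of 51 values recomputed under alternatives, 23 stayed within the interval of the reported value or within 1.5 times of the count. Another 25 moved outside it without a change in the order of the classes. The number of peaks and the share in clusters have no such order, so for them it could not change. The intervals treat peaks as independent, so for shares that depend on neighbouring peaks they are likely too narrow. The share of summits in the first or last 20% does not use the comparison class. With mid-length peaks over 1500 bp it therefore stayed the same by construction. In the remaining 3 the order of the classes changed, all with peaks less than 1 kb apart joined. For fold this was no more than a loss of the difference, since the interval of its share (46.9 to 50.8%) includes an even split. With it, the number over 2000 bp was 2642 in place of 379, 25.5% were above the mid-length median of tags per kb, 28.4% had the next one within 100 kb and 48.8% were under the median fold; 54.3% had the summit in the first or last 20%, 24.4% lay in clusters and the ratio on chromosome 4 was 1.45. Of these 2642 regions, 2307 held no broad peak, so the joined class is largely made of other peaks. Joining counts gaps as length, which lowers tags per kb by construction, and it removes every gap under 1 kb. With a limit of 2500 bp, 216 peaks remained, of which 99.1% were above the tags median, 82.4% under the fold median, 61.6% within 100 kb of the next and 63.4% in clusters. With a limit of 3000 bp, 150 remained, with 100% above the tags median, 82.0% under the fold median, 61.9% within 100 kb of the next and a ratio of 2.84 on chromosome 4. With a fold of at least 1, 42.9% had the next within 100 kb, 44.5% lay in clusters, 67.3% were under the fold median and the ratio on chromosome 4 was 1.82. Without chromosome 4, 45.3% had the next within 100 kb and 46.8% lay in clusters. The share in clusters was 50.8% with an FDR of at most 1%, 50.1% with a joining gap of 50 kb and 46.2% with at least 5 members. The share above the tags median was 84.4% against mid-length peaks over 1500 bp. Per Mb of span, the ratio on chromosome 4 was 3.51. For changes that the alternative does not set by construction, the cause was not tested. No paired analysis was possible because there is 1 library per group. Library depth is unknown, and precision rests on each peak's own tags.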
